A study of Mus musculus with 10 samples.

Results

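DNA replication and mitosis genes were examined in 5 sorted fractions of mouse embryonic stem (ES) cells. A list of 49 genes of the replication machinery, the cyclins and their kinases, and the mitotic apparatus was matched by symbol to the deposited expression table of 32361 rows, and 48 of them had a row; the other 1 is not analysed here. They comprised 20 replication genes, 8 regulators of the passage from G1 into S phase and 20 mitotic genes. All 48 passed the filter on low values, at least 1 FPKM in at least 1 fraction, which 13595 rows passed. FPKM is the number of sequenced fragments scaled to transcript length and to all mapped fragments, so levels can be set side by side between genes.

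All cells were of the E14Tg2a.4 ES cell line. In the first reporter line, fluorescent proteins were knocked into both the Esrrb and the Tbx3 gene. Its cells were sorted as negative for both reporters (double-negative), positive for Esrrb alone (single-positive) or positive for both (double-positive). The second line had a transposon reporter (written PiggbyBac in the labels) in which part of the Zscan4c promoter drives the fluorescent protein, and gave Zscan4c-Negative and Zscan4c-Positive fractions, here called Zscan4-negative and Zscan4-positive. Each fraction had 2 libraries collected on different days, but the table holds 1 value per gene and fraction, so differences are given without replicate error or test, and the depth of sequencing is unknown. Whether a line was 1 clone is not given in the sources used here, and no treatment is named.

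Before a cell divides it loads the MCM helicase onto replication origins, copies its DNA in S phase, and then separates the copies in mitosis. Replication genes are classically transcribed from late G1 under E2F factors, which the retinoblastoma family restrains until cyclin D with CDK4 or CDK6 and cyclin E with CDK2 phosphorylate it. Mitotic genes peak later, through a promoter element called CHR together with CCAAT boxes bound by NF-Y. ES cells cycle fast with a short G1 phase and transcribe both gene groups highly.

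In every fraction the members stood well above the typical compared row. The median over the 48 members was 56.2, 64.3 and 73.1 FPKM in the double-negative, single-positive and double-positive fractions, and 69.3 and 67.4 FPKM in the Zscan4-negative and Zscan4-positive fractions. Over all compared rows the medians ran from 10.01 FPKM in Zscan4-negative to 11.4 FPKM in double-negative cells. The highest member in each fraction was Cdk4, the kinase partner of the D cyclins, between 362 FPKM in single-positive and 442 FPKM in Zscan4-negative cells. Between the highest and the lowest fraction the median member differed by a ratio of 1.37, and 37 of 48 members stayed under a ratio of 1.5. Only Ccnd2, at 6.45, and Orc1, at 2.24, had a ratio of 2 or more, against 13.96% of 7063 rows whose mean over the fractions was 10 FPKM or more, a level that 47 of the 48 members reached.

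**Figure D1:**
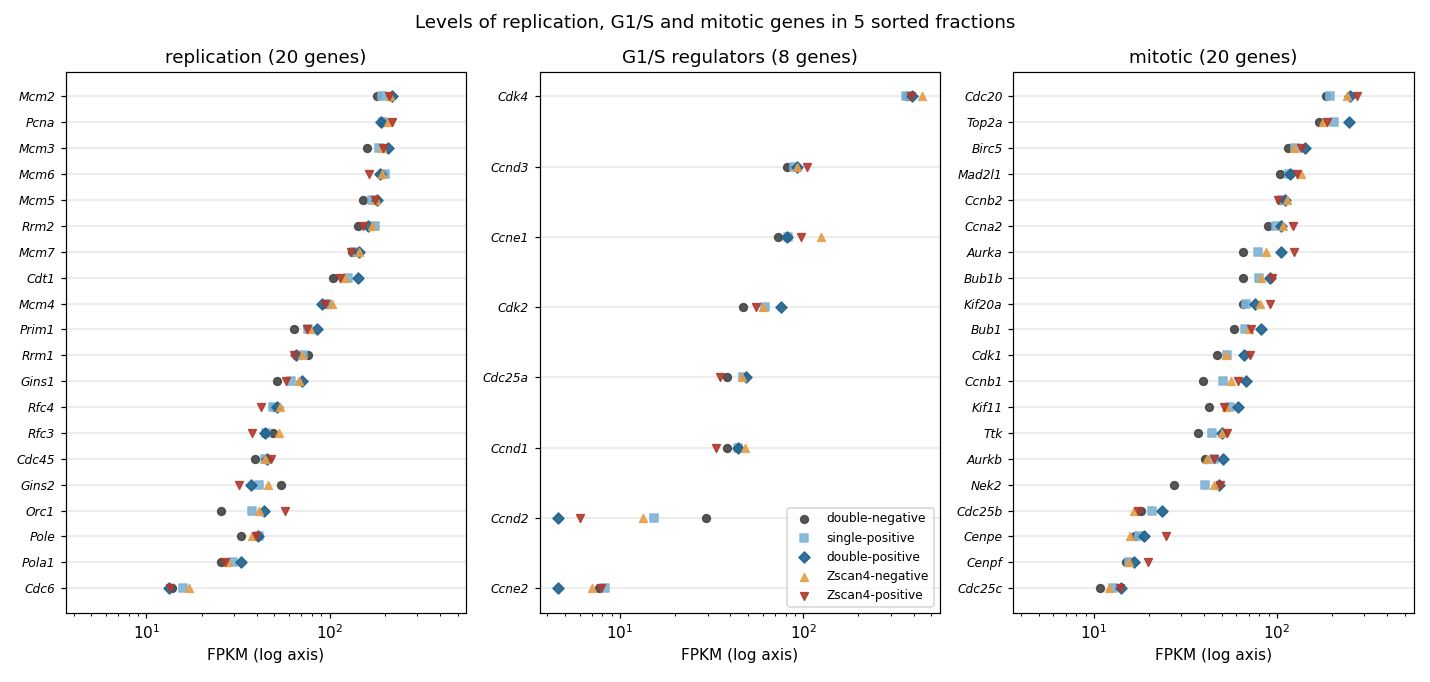
Level of each of the 48 members (rows) in the 5 fractions (symbols), as FPKM on a log axis, in panels by class and ordered by mean level. For most genes the 5 symbols nearly overlap, and Ccnd2, from 4.58 to 29.5 FPKM, is spread most widely. Double-negative cells (grey circles) are the lowest fraction for 17 of 20 mitotic and 11 of 20 replication genes. They also have the lowest summed FPKM over all rows (507495, against 522869 to 552117 in the others). The share of all rows lowest there was not computed, nor were these counts repeated with scaled columns.

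The 2 main classes differ in the letters of their promoters. The letters searched are those of the elements named above for each class, so this difference is not an independent finding. Promoter windows of 250 bases before to 50 after the start site (RefSeq, GRCm38.p6, the assembly also called mm10) were found for 37 of the 48 members, with 39 windows. Ccnd2, Ccnd1, Ccne2, Ccna2, Mcm4, Pole, Gins1, Gins2, Aurkb, Kif20a and Cdc25c had no entry. E2F-type letters were searched as TTTCGCGC, TTTGGCGC, TTTCCCGC and GGCGGGAA, where matches of the last 2 can overlap. CHR-type letters were TTTGAA and also the palindrome TTTAAA, and the NF-Y-type letters were CCAAT, with both strands read in each case. E2F-type letters were in 12 of 17 replication windows (70.6%) and in 1 of 16 mitotic windows (6.25%), while 3.49% of all 32851 promoter windows hold them. CHR-type letters were in 4 of 17 replication (23.5%) and 12 of 16 mitotic windows, against 27.6% of all windows. NF-Y-type letters were in 14 of 17 replication (82.4%) and 14 of 16 mitotic windows (87.5%), against 37.4% of all windows. A match describes the letters and does not show that a factor binds.

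A few upstream stretches of 250 bases, ending just before the start site, are printed 5′ to 3′ with all motif matches in capitals, because they show the 2 promoter kinds side by side. They were picked after the matches were seen, from members described below. Mcm6 (chr1:128359706-128359955, minus strand), Orc1 (chr4:108579204-108579453, plus strand) and Rrm1 (chr7:102441445-102441694, plus strand) are replication genes. Ccnb1 (chr13:100786487-100786736, minus strand), Cdk1 (chr10:69352913-69353162, minus strand) and Cdc20 (chr4:118437344-118437593, minus strand) are mitotic genes, and Cdk1 holds both E2F-type and CHR-type letters.
Mcm6: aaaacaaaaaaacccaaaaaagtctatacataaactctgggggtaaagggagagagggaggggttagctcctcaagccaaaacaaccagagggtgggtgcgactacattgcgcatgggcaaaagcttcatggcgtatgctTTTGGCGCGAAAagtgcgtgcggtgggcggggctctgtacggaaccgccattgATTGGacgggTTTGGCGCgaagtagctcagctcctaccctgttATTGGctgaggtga
Orc1: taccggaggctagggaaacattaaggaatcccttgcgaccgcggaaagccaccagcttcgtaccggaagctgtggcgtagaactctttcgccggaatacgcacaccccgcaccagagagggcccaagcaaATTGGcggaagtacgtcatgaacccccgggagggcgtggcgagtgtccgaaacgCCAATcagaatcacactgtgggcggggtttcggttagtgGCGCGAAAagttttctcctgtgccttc
Rrm1: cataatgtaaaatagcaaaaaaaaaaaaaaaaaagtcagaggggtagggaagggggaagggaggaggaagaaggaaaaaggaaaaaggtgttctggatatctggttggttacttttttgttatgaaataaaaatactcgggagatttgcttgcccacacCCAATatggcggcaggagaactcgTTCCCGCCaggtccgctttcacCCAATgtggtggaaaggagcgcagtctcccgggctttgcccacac
Ccnb1: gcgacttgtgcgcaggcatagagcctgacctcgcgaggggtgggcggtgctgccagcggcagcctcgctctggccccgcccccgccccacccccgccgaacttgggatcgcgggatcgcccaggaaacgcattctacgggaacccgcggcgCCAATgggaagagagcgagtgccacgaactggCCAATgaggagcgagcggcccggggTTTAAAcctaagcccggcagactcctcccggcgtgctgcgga
Cdk1: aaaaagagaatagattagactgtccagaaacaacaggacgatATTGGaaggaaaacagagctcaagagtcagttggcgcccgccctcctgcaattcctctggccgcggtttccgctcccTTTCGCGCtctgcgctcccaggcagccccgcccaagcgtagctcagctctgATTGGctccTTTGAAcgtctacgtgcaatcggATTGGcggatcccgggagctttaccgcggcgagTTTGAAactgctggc
Cdc20: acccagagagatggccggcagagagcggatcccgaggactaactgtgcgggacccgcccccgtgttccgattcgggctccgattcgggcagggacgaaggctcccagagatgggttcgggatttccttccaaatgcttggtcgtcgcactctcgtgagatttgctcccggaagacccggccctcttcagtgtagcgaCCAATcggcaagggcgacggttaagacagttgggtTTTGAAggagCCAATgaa

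In the Mcm6 stretch 2 E2F-type matches overlap, the first starting at position -110 from the start site, and a further one starts at -47. The Orc1 stretch has 1 E2F-type match at -27 and that of Rrm1 has 1 at -67, both on the opposite strand. In Ccnb1 a pair of CCAAT boxes at -99 and -67 stands ahead of the CHR-type letters at -42. In Cdc20 the CHR-type letters start at -18, between CCAAT boxes at -53 and -8. The other replication windows with E2F-type letters were those of Mcm3, Mcm5, Mcm7, Rfc3, Rfc4, Pola1, Prim1, Cdc6 and Cdt1.

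**Figure D2:**
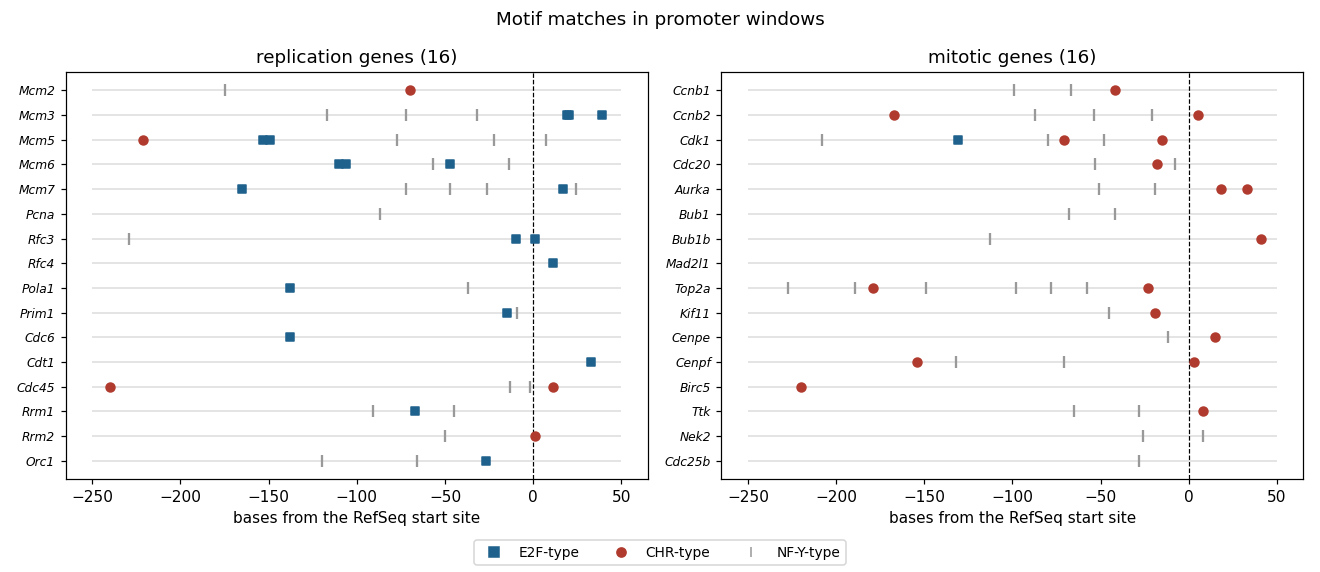
Positions of E2F-type (blue squares), CHR-type (red circles) and NF-Y-type (grey ticks) matches in the promoter windows of 16 replication and 16 mitotic genes; the horizontal axis gives bases from the RefSeq start site (dashed line), and the 2 windows of Mcm7 share a row. Blue squares lie almost all in the replication panel, with Cdk1 the exception among mitotic genes, and red circles mostly in the mitotic panel.

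Differences between fractions are given as log2(FPKM + 1), which understates the difference of low genes, and called higher or lower refers to a difference of 2-fold or more on that scale. In bulk RNA of this kind, fewer cells in a cell cycle phase and less RNA per cell cannot be told apart, and no measure of phase in the sorted cells was used here. The first 3 comparisons share fractions with each other and are not independent.

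Marker genes of other cell types are part of the setting for these comparisons. All 8 ES cell markers were present in every fraction, the lowest being Esrrb itself at 43.3 FPKM in double-negative cells. Fibroblast markers (13 genes) summed to 1974 FPKM in double-negative and 1398 FPKM in single-positive cells, with none at 0. They summed to 24.6 to 34.8 FPKM in the other fractions, where 1 was at 0 in each Zscan4 fraction. Dcn and Lum were nearly absent, at 0.217 and 0.0145 FPKM in double-negative cells, and Lum was highest in double-positive cells (0.144 FPKM). T-cell markers (13 genes) summed to 567 and 405 FPKM in double-negative and single-positive cells and to 22.9 to 36.9 FPKM elsewhere, with none at 0. Of these, Cd4 and Cd5 were under 1 FPKM in every fraction. Cd2 was higher in single-positive (5.15 FPKM) than in double-negative cells (4.49 FPKM). A wider profile of 484 rows shared by double-negative and single-positive cells held 1.61% and 1.10% of their summed FPKM. None of the 48 members is one of these rows. The profile takes only rows at most 0.1 times as high in each remaining fraction, so a gene well expressed in every fraction cannot enter it. The part of cells of other types in the differences between double-negative, single-positive and double-positive fractions was not tested.

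Single-positive were compared with double-negative cells to see what accompanies Esrrb while Tbx3 is low. Both classes were slightly higher in single-positive cells, with a median difference of 0.17 for replication and 0.18 for mitotic genes, against -0.02 for all rows and 0.05 for those whose mean was 10 FPKM or more. No member was called higher or lower, where 1.82% of all compared rows were called higher and 1.43% lower. All 20 mitotic members had a difference above 0 (19 to 20 over 3 scalings of the columns), and 14 of 20 replication members did (12 to 13 over the scalings). Of all compared rows 46.6% were above 0, and 59.6% of those whose mean was 10 FPKM or more. The largest mitotic difference was that of Nek2, a centrosome kinase gene (0.55), and the largest replication difference that of Orc1, a subunit of the origin recognition complex (0.54). Gins2, of the GINS complex that completes the active helicase, had the most negative replication difference (-0.39).

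Double-positive were compared with single-positive cells to see what accompanies Tbx3 once Esrrb is on. Here the class medians lay further apart, at 0.17 for mitotic and 0.05 for replication genes. The median was 0.01 for all rows and 0.06 for those whose mean was 10 FPKM or more. The classes overlapped: 13 of 20 mitotic members lay within the replication range, and 11 of 20 replication members within the mitotic range. All 20 mitotic members were above 0 (17 to 20 over the scalings), as were 11 of 20 replication members (7 to 11 over the scalings), and 50.8% of all rows and 63.2% of those whose mean was 10 FPKM or more. The replication median was -0.03 when the columns were scaled to equal totals, so its sign depends on the scaling. The largest mitotic differences were those of Aurka, a spindle-pole kinase gene, and Ccnb1, the gene of the main mitotic cyclin (both 0.40), and the smallest was that of Mad2l1, a spindle checkpoint gene (0.02). Among replication genes Orc1 (0.22) was highest and Cdc6, which loads the helicase with CDT1, lowest (-0.25). Ccnd2 was the 1 member called lower, where 6.94% of all rows were, and no member was called higher, where 0.346% were.

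Double-positive against double-negative cells, the ends of this series, gave a mitotic median of 0.39 and a replication median of 0.19, against -0.02 for all rows. Scaling the columns to equal totals shifted the median of all rows to -0.12, the mitotic median to 0.28 and the replication median to 0.07. Relative to the median of all rows the mitotic genes then stood at 0.40, in place of 0.41 with the values as deposited. The replication genes stood at 0.20 in place of 0.21. Such a scaling shifts class medians and the median of all rows nearly alike, so these offsets could hardly change. Relative to rows whose mean was 10 FPKM or more, with a median of 0.11 as deposited, the mitotic genes stood at 0.28 and the replication genes at 0.084. All 20 mitotic members were above 0 (19 to 20 over the scalings), 13 of 20 replication members were (11 to 13), and so were 48.5% of all rows and 62.4% of those whose mean was 10 FPKM or more. Of the 20 mitotic members, 16 lay above the replication median, and 12 of 20 replication members lay within the mitotic range. Ccnd2 was again the 1 member called lower, where 12.2% of all rows were, and none was called higher, where 3.81% were.

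The Zscan4 sort compared the rare cells with an active Zscan4c promoter, a state with transcripts of the 2-cell embryo, with the rest of their culture, and uses none of the fractions above. Here the class medians lay on opposite sides of 0, at -0.10 for replication and 0.13 for mitotic genes. The median was -0.01 for all rows and -0.04 for those whose mean was 10 FPKM or more. Of 20 replication members 15 were lower and 5 higher in Zscan4-positive cells, while of 20 mitotic members 17 were higher and 3 lower. The count above 0 ran from 4 to 7 for replication and from 16 to 18 for mitotic genes over the scalings tried, and 48.2% of all rows and 43.8% of those whose mean was 10 FPKM or more were above 0. Of the mitotic members 19 lay above the replication median, and 1 replication member, Orc1, lay above the mitotic median. Ccnd2 was the 1 member called lower, where 0.875% of all rows were, and none was called higher, where 3.46% were. Fibroblast markers summed to 24.6 FPKM in Zscan4-negative and 34.8 FPKM in Zscan4-positive cells. Of the 11 that passed the filter 10 were above 0, with Thy1 at 2.12 and 8.37 FPKM. T-cell markers summed to 25.7 and 22.9 FPKM, with 8 of 11 above 0. The part of cells of other types in this sort was not tested. The 2-cell-like markers (8 rows) had a sum of 396 FPKM with the reporter on and of 0.510 FPKM with it off. By promoter letters, 13 members had E2F-type without CHR-type and 15 CHR-type without E2F-type letters. Their medians were 0.32 and 0.31 between double-positive and double-negative cells, and 0.21 and 0.18 between single-positive and double-negative cells. They were 0.09 and 0.18 between double-positive and single-positive cells, and -0.14 and 0.11 in the Zscan4 sort.

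**Figure D3:**
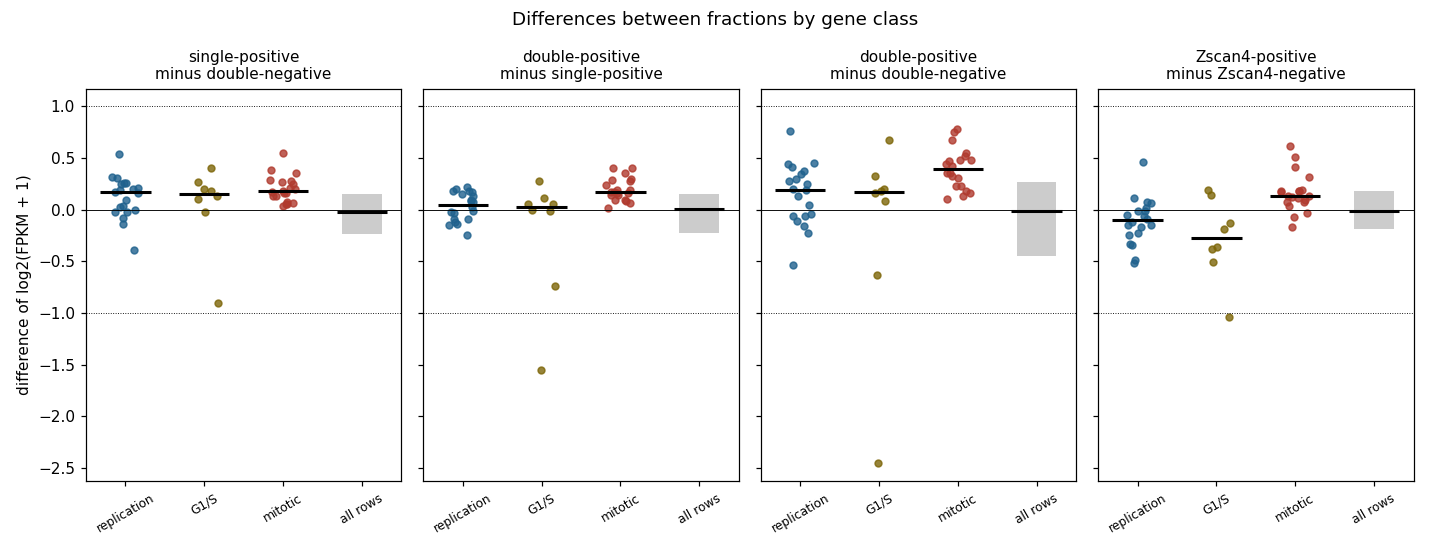
Difference of log2(FPKM + 1) for each member (points) by class in 4 comparisons, with class medians as black lines, the middle 50% of all 13595 compared rows as a grey bar with its median, and dotted lines at 2-fold. The mitotic and replication points overlap in every panel. The mitotic median exceeds the replication median by 0.13, 0.20 and 0.23 in the last 3 panels, and by 0.01 in the first.

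The origin licensing genes prepare replication origins before S phase, and their levels followed different patterns. Orc1 was at 25.5, 37.5 and 43.9 FPKM in double-negative, single-positive and double-positive cells, and at 41.2 and 57.2 FPKM in the Zscan4-negative and Zscan4-positive fractions. It was thus lowest in double-negative and highest in Zscan4-positive cells, with a difference of 0.76 along the Esrrb and Tbx3 series and of 0.47 in the Zscan4 sort. Cdt1, the licensing factor that geminin inhibits, was at 105, 126 and 143 FPKM along the series and at 122 and 115 in Zscan4-negative and Zscan4-positive cells. Cdc6 was the lowest replication gene throughout, at 13.8, 15.9, 13.2, 17.2 and 13.5 FPKM in the same order of fractions, with its highest level in Zscan4-negative cells.

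The 6 MCM genes encode the ring of the replicative helicase and are among the most abundant members. Mcm2 was at 182, 194 and 220.5 FPKM in double-negative, single-positive and double-positive cells and at 214 and 212 FPKM in Zscan4-negative and Zscan4-positive cells. In the same order Mcm3 was at 161, 186, 209, 194 and 197 FPKM, and Mcm5 at 153, 171, 181, 179 and 178 FPKM. These 3 genes had their lowest level in double-negative cells and differed by -0.02, 0.02 and -0.01 in the Zscan4 sort. Mcm6 was at 196, 199.9, 188, 192 and 164 FPKM, Mcm7 at 132, 136, 144, 145 and 132 FPKM, and Mcm4 at 98.4, 97.2, 91.2, 103 and 94.5 FPKM. Between double-positive and double-negative cells 4 of the 6 differences were above 0 and 2 below, from 0.38 for Mcm3 to -0.11 for Mcm4. In the Zscan4 sort 5 of 6 were below 0, with Mcm6 the most negative (-0.22) and Mcm3 the 1 above 0. Most of these differences are small and have no replicate error.

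The factors that turn the loaded ring into a moving helicase also had differences of both signs. Gins2 was at 54.4, 41.4 and 37.2 FPKM along the Esrrb and Tbx3 series and at 46.3 and 32.04 FPKM in Zscan4-negative and Zscan4-positive cells. It was the replication gene with the most negative difference both along the series (-0.54) and in the Zscan4 sort (-0.52). Its partner Gins1 was at 51.6, 61.6 and 71.0 FPKM along the series, the opposite order, and at 68.4 and 57.5 FPKM in the Zscan4 fractions. Cdc45, the third component of the active helicase, was at 39.4, 44.6, 45.4, 44.1 and 47.8 FPKM. The deposited interval of Gins2 is 100210 bases long, against 7810 bases for its RefSeq gene. Such an interval was over 1.5 times the RefSeq length for 7 of 48 members. Besides Gins2 these were Ccnd1, Ccnd2, Ccne2, Ccna2, Cdc20 and Kif20a. What else these intervals hold, and whether it enters the levels of these genes, was not examined.

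Among the enzymes at the fork, the catalytic subunit genes Pola1 and Pole and the primase gene Prim1 were lowest in double-negative cells, at 25.7, 32.8 and 64.0 FPKM. They reached 32.8, 40.7 and 85.3 FPKM in double-positive cells and differed by -0.06, 0.07 and -0.06 in the Zscan4 sort. The clamp loader genes behaved otherwise. Rfc3 was at 49.4, 44.8, 44.3, 52.9 and 37.5 FPKM over the 5 fractions and Rfc4 at 49.7, 48.9, 51.5, 53.7 and 42.1 FPKM, both lowest in Zscan4-positive cells. Pcna, the sliding clamp itself, was instead highest there, at 219 FPKM, with 190.5 to 209 FPKM in the other fractions. The ribonucleotide reductase genes Rrm1 and Rrm2, which supply deoxynucleotides, differed by -0.15 and -0.17 in the Zscan4 sort and by -0.14 and -0.12 between double-positive and single-positive cells. Their signs were opposite between single-positive and double-negative cells (-0.08 and 0.31) and between double-positive and double-negative cells (-0.22 and 0.19).

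The G1/S regulators held the only member past 2-fold in any of the 5 comparisons. Ccnd2, the gene of cyclin D2, was at 29.5, 15.3 and 4.58 FPKM in double-negative, single-positive and double-positive cells, and at 13.4 and 6.003 FPKM in the Zscan4-negative and Zscan4-positive fractions. It was highest in double-negative cells and low in both the double-positive and the Zscan4-positive fraction, with differences of -0.90 and -1.55 in the Esrrb and Tbx3 steps, -2.45 over the whole series and -1.04 in the Zscan4 sort. The last of these is close to the 2-fold line, and with median-ratio scaling it was -1.001. Along the series fibroblast markers summed to 1974, 1398 and 31.0 FPKM and T-cell markers to 567, 405 and 36.9 FPKM. In Zscan4-negative and Zscan4-positive cells fibroblast markers summed to 24.6 and 34.8 FPKM and T-cell markers to 25.7 and 22.9 FPKM. The ratio of the Ccnd2 level in Zscan4-positive to that in Zscan4-negative cells was 0.448. The part of cells of other types in the Ccnd2 levels was not tested. The gene lies on chromosome 6 (mm10, 127125162 to 127152188 in RefSeq).

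The other D cyclins had other patterns. Ccnd1 was at 38.3, 44.3, 44.2, 48.0 and 33.5 FPKM in the order of fractions used above, lowest in Zscan4-positive cells with a difference of -0.51 in that sort. Ccnd3 was at 81.2, 89.2, 92.5, 91.8 and 105 FPKM, highest in Zscan4-positive cells with a difference of 0.19. It was the most abundant D cyclin gene in all 5 fractions, and Ccnd2 the least. Ccnd1 and Ccnd2 together with Cdk4 (-0.19) were thus lower and Ccnd3 higher in Zscan4-positive cells, while along the Esrrb and Tbx3 series Ccnd1 and Ccnd3 differed by 0.20 and 0.19 and Ccnd2 in the opposite direction.

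Cyclin E activates CDK2 at the start of S phase, and its 2 genes were expressed at very different levels. Ccne1 was at 72.4, 82.1 and 81.4 FPKM along the series and at 125 and 97.4 FPKM in Zscan4-negative and Zscan4-positive cells, so that both fractions of the Zscan4 line exceeded all 3 of the other line. Ccne2 was at 7.64, 8.26, 4.56, 7.05 and 7.86 FPKM, lowest in double-positive cells, and differed by -0.73 from single-positive cells without reaching 2-fold. Cdk2 was at 46.6, 61.9, 75.2, 60.3 and 55.0 FPKM and Cdc25a, whose phosphatase activates CDK2, at 38.4, 46.6, 48.4, 46.2 and 35.2 FPKM. Cdk2 had the largest positive difference of this class along the series (0.68), and Cdc25a was lowest in Zscan4-positive cells (-0.38).

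**Figure D4:**
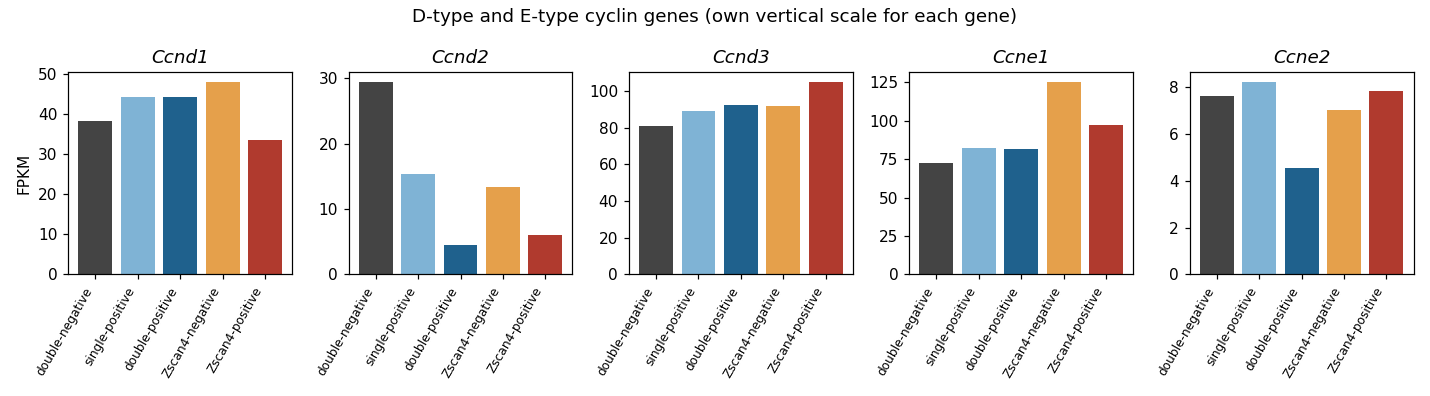
Level (FPKM, bars from 0, a separate vertical scale for each gene) of the 3 D-type and 2 E-type cyclin genes in the 5 fractions, 1 deposited value each and therefore without error bars. Ccnd2 is at 29.5 FPKM in double-negative and 4.58 in double-positive cells, whereas Ccnd1 and Ccnd3 are nearly level across those fractions.

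Among the genes that start mitosis, Ccnb1 was at 39.6, 50.9 and 67.5 FPKM along the Esrrb and Tbx3 series and at 56.3 and 61.6 FPKM in Zscan4-negative and Zscan4-positive cells. Its relative Ccnb2 was nearly level at 103, 106, 111, 113 and 101 FPKM, the smallest mitotic difference along the series (0.10) and the most negative in the Zscan4 sort (-0.17). Ccna2, whose cyclin A2 acts from S phase to early mitosis, was at 89.5, 98.4, 105, 108 and 122 FPKM. Cdk1, the kinase gene these cyclins serve, was at 47.3, 53.4, 65.7, 52.9 and 71.0 FPKM and differed by 0.42 in the Zscan4 sort. Ccna2 and Cdk1 thus had their highest level in Zscan4-positive cells and Ccnb1 in double-positive cells. The phosphatase genes Cdc25b and Cdc25c, which switch CDK1 on, were low at 16.5 to 23.4 and 10.8 to 14.1 FPKM, both highest in double-positive cells.

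Mitotic kinase genes drive centrosome maturation and chromosome attachment. Aurka was at 65.0, 78.8 and 104 FPKM along the series and at 86.8 and 124 FPKM in the Zscan4 fractions, a difference of 0.68 and of 0.51. Nek2 was at 27.5, 40.6 and 48.1 FPKM along the series (0.79, the largest of the class) but at 45.1 and 48.8 FPKM in the Zscan4 fractions (0.11). Aurkb, the kinase gene of the chromosomal passenger complex, was at 40.2, 45.1, 50.5, 41.3 and 45.3 FPKM, and its partner Birc5 (survivin) at 114, 125, 142, 123 and 135 FPKM. All 4 genes were lowest in double-negative cells.

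The spindle checkpoint delays chromosome separation until every kinetochore is attached. Bub1, Bub1b and Ttk, which encode its kinases or kinase-like components, differed by 0.48, 0.48 and 0.44 along the series and by 0.04, 0.19 and 0.10 in the Zscan4 sort. Cdc20, the activator that the checkpoint blocks, was at 186, 196, 250.3, 240.1 and 273 FPKM, the highest mitotic gene in 4 of the 5 fractions. Mad2l1 was at 104, 117, 118, 136 and 129 FPKM and was 1 of the 3 mitotic genes that were lower in Zscan4-positive cells, with Ccnb2 and Kif11.

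Of the motor, kinetochore and chromosome genes, Cenpe, a kinetochore motor gene, had the largest mitotic difference in the Zscan4 sort (0.62). It was at 16.7, 17.6 and 18.8 FPKM along the series, at 15.8 FPKM in Zscan4-negative and at 24.8 FPKM in Zscan4-positive cells. Cenpf was at 15.0, 15.6, 16.6, 15.6 and 19.6 FPKM, likewise highest in Zscan4-positive cells (0.32). Top2a, the decatenating topoisomerase gene, was at 169.9, 205, 248, 177 and 187 FPKM and thus had its highest level in double-positive cells, with little difference in the Zscan4 sort (0.08). Kif11 and Kif20a, genes of spindle motors, ran from 42.6 to 61.5 and from 65.1 to 91.4 FPKM.

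Other genes of the same pathways, from lists that hold none of the 49, had medians in the same order. Of 42 other replication genes the median was -0.09 in the Zscan4 sort, with 12 above 0, and of 50 other mitotic genes it was 0.15, with 41 above 0. Between double-positive and double-negative cells the medians were 0.12 and 0.51, and in the Tbx3 step 0.02 and 0.21. In the Esrrb step they were 0.09 and 0.27, a gap of 0.18, where the gap between the member classes was only 0.01. Between double-positive and Zscan4-negative cells they were -0.11 and 0.18, where the member medians were 0.00 and 0.20. Of the 42 other replication genes 1 was called higher, no larger a share than that of all rows (3.81% along the series and 3.46% in the Zscan4 sort). This was Ticrr, which encodes a helicase activation factor, at 13.02, 22.7, 32.4, 21.7 and 50.7 FPKM. Its difference was 1.25 along the series and 1.19 in the Zscan4 sort. Chaf1b, a chromatin assembly subunit gene, had the most negative difference of that list in the Zscan4 sort (-0.78), at 53.7 against 93.1 FPKM. Of the 50 other mitotic genes 4 were called higher along the series, where 3.81% of all rows were: Cep55 (1.39), Mybl2 (1.18), the kinetochore gene Spc24 (1.10) and the kinesin gene Kif14 (1.04). Mybl2, a factor of the complex that activates mitotic genes, had 88.4 FPKM at the double-negative and 202 FPKM at the double-positive end. Cep55, which acts in abscission, was also called higher in the Esrrb step (1.14), as the only one of the 50. Mki67, the gene of the Ki-67 proliferation antigen, was the most negative of that list along the series, at 34.8 against 28.2 FPKM (-0.29).

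E2F and DP factor genes had a median of -0.25 in the Zscan4 sort, with 9 of 10 below 0, and of -0.01 along the series. E2f1 was the exception in the Zscan4 sort, at 35.3 against 32.6 FPKM, and the most negative was Tfdp1, the gene of the main E2F partner, at 39.4 against 62.5 FPKM (-0.65). None of the 10 was called. A list of 18 genes held inhibitors and checkpoint genes, and also Cdk6, a kinase that is neither. Of these, 3 were called lower at the double-positive end of the series, a share near the 12.2% of all rows called lower there. They were the inhibitor genes Cdkn1c and Cdkn2c, and Cdk6. Cdkn1c, which encodes the inhibitor p57, was at 72.5, 19.3 and 24.7 FPKM along the series, and at 52.4 and 28.5 FPKM in Zscan4-negative and Zscan4-positive cells. Cdkn2c, which encodes an inhibitor of CDK4 and CDK6, was at 8.07, 5.84 and 0.669 FPKM, and at 0.681 and 1.02 FPKM in the Zscan4 fractions. The single-positive level of Cdkn2c was 0.724 times its double-negative level, and the fibroblast and T-cell markers are high in the same 2 fractions; their part in it was not tested. Cdk6, the other partner of the D cyclins, was at 16.3, 13.7, 7.53, 10.4 and 7.09 FPKM, so that like Ccnd2 it was lower in double-positive and Zscan4-positive cells.

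Double-positive and Zscan4-negative cells, 1 fraction from each reporter line, were compared to see how these genes differ between the lines. The replication median was 0.00 and the mitotic median 0.20, against 0.01 for all rows and 0.02 for those whose mean was 10 FPKM or more, with 10 of 20 replication (6 to 10 over the scalings) and 16 of 20 mitotic members (15 over the scalings) above 0. With equal totals the replication median was -0.05. Of all rows 51.6% were above 0, and 53.7% of those whose mean was 10 FPKM or more. The largest mitotic differences were those of Top2a and Cdc25b (both 0.48). Ccnd2 was called lower in double-positive cells (-1.37), where 0.816% of all rows were, and no member was called higher, where 0.743% were. Ccne1 was lower there too (-0.62). The mitotic median in this comparison of lines exceeds that within the Zscan4 sort (0.13), so a difference of that size also occurs between fractions that differ in reporter, line and sort gate, which cannot be told apart.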

How the data were processed

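RNA of 10 libraries, 2 in each of 5 sorted fractions, was sequenced. The authors deposited 1 FPKM value per row and fraction, per the file headers, in a table titled as counts. TopHat2 2.0.14, Cuffdiff 2.2.1, Cufflinks, bcl2fastq 1.8.4 and the build mm10 are named per the submitters' processing notes. How the libraries were merged, and with which annotation, is not stated there. FPKM keeps no depth.

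The genes and lists were chosen with earlier results of these data known. Differences are those of log2(FPKM + 1) over the 13595 rows that reach 1 FPKM in any fraction, called past 2-fold. No test could be run on 1 value per fraction. Named were all members past 2-fold, the extremes of each class, gene families described as units, and up to 4 called genes of each other list; Chaf1b, Mki67, Tfdp1 and E2f1 and other single members were named after their values were seen. The comparison with rows of a mean of at least 10 FPKM was added after seeing the data. Promoter windows were from RefSeq. The shared profile of 484 rows was defined by single-positive levels of 0.5 to 1 times those of double-negative cells, with at most 0.1 times in each remaining fraction. The steps were tested on simulated data. Python 3.11.15, pandas 2.3.3, numpy 2.4.6 and matplotlib 3.10.9 were used.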

Additional observations from a re-analysis of the deposited data

How the results depend on the processing

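Alternatives were a pseudocount of 0.1, no filter on low values, 3 scalings (equal totals, median ratio, equal totals outside the shared profile), summed rows of 1 symbol, and rows whose mean is 10 FPKM or more. Of 210 values of class medians, gaps between classes and counts past 2-fold, 204 stayed within 0.1 (log2), or counts within 1.5 times. The exceptions were medians between double-positive and double-negative cells. With equal totals these were 0.0744 for replication, 0.276 for mitotic and 0.0560 for G1/S genes, and with equal totals outside the shared profile 0.0518, 0.254 and 0.0334. Column scaling shifts both class medians nearly alike, and the filter, summed rows and mean cut leave replication and mitotic members unchanged. Part of the 204 values therefore could not move. The gap between mitotic and replication medians in the Zscan4 sort could hardly change either, and was 0.234 to 0.237 under these alternatives. Besides these, 3 medians changed sign, in 7 settings together: replication in the Tbx3 step (-0.03 and -0.04 under the same 2 scalings) and between lines (-0.0532, -0.00513 and -0.0532 under the 3 scalings), and G1/S in the Tbx3 step (-0.0524 and -0.0675). Of 1675 single member differences, 101 moved by over 0.1 and 49 changed sign, so the direction of a small difference can depend on the setting. With a pseudocount of 0.1, rows called higher and lower numbered 428 and 469 in the Esrrb step (247 and 195 as deposited), 153 and 1460 in the Tbx3 step (47 and 943), 835 and 280 in the Zscan4 sort (470 and 119) and 341 and 339 between lines (101 and 111). No paired analysis was possible because the table holds 1 value per fraction, and no library could be left out. Read depth is unknown, so the precision of low genes such as Ccne2 is too.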
